A study of Mus musculus with 24 samples.

Results

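Most of the genes described here encode proteins of the cornified envelope. It is the cross-linked protein shell that replaces the plasma membrane of the outermost epidermal cells. Others include proteases, calmodulin-like genes and transcribed pseudogenes. The set was all gene symbols beginning with Lce (late cornified envelope) or Sprr (small proline-rich) together with 23 genes chosen by name. Of the 19937 genes measured, 54 belonged to this set: 19 Lce genes, 13 Sprr genes and 22 of the 23 named genes. Flg is not analysed here. A gene was read from the probe set that carried its symbol alone, and none of the 54 had more than 1 such probe set. RefSeq places 40 of the 54 on mouse chromosome 3, in or beside the epidermal differentiation complex, and 14 elsewhere.

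Keratinocytes that leave the basal layer first make keratins and later, in the granular layer, make the envelope proteins. Involucrin, envoplakin and periplakin form a first scaffold under the membrane, transglutaminases join loricrin, SPRR and LCE proteins to it, and proteases and S100-fused proteins such as filaggrin act on the keratin matrix inside. Most of the envelope genes sit side by side in the epidermal differentiation complex. PPAR-beta, the product of Ppard, is a nuclear receptor for fatty acids that is known to promote keratinocyte differentiation, and oncogenic Hras is known to disturb it.

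Primary keratinocytes came from Ppar-beta null and wild-type (WT) mice of strain C57/BL6, and were grown for 2 days before transduction. Of each genotype, cells received either a retrovirus that encodes activated Hras, for 48 hours, or a mock transduction. The ligand GW0742, a synthetic PPAR-beta agonist, was given at 1 uM for 24 hours, against the vehicle DMSO. This gave 8 groups of 3 arrays each: null Hras GW0742, null Hras DMSO, WT Hras GW0742, WT Hras DMSO, null mock GW0742, null mock DMSO, WT mock GW0742 and WT mock DMSO. Total RNA was read on 24 Affymetrix Mouse Gene 1.0 ST arrays, whose number limits the precision of every value. Neither separate cultures nor separate animals are stated for the 3 arrays of a group, so the p-values reflect how the arrays vary among themselves, and part of that variation may be technical. No source used here describes the null allele or the promoter of the retrovirus.

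All values are the authors' RMA values on the log2 scale. Changes are log2 differences ± standard error from 1 limma model of all 24 arrays, and a gene passed at a Benjamini-Hochberg adjusted p under 0.05 over all 19937 genes. The words rose and fell are used of genes that passed. Several members are close paralogs whose probes could share signal, and these cannot be told apart on the array. Levels are compared within a gene and never between genes.

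The array medians lay between 7.46 and 7.53. Ppard itself was -0.57 ± 0.06 (adjusted p = 1.53e-06) in null against WT cells after mock transduction and -0.28 ± 0.06 (adjusted p = 0.00194) after Hras, and its mean level was 10.62 in null against 11.19 in WT mock cells. Where its probes lie relative to the deleted part is not known from the sources used here, so its level is no check of the deletion. Pdk4, a well-known target of the receptor, had a change with GW0742 of 0.16 ± 0.08 in null mock cells and 4.14 ± 0.08 in WT mock cells, and by 0.29 ± 0.08 (adjusted p = 0.0431) and 5.83 ± 0.08 in null and WT Hras cells. Angptl4, another known target, had a change with GW0742 of 0.03 ± 0.11 (adjusted p = 0.992) in null mock cells and 4.17 ± 0.11 (adjusted p = 1.18e-16) in WT mock cells, and of -0.37 ± 0.11 (adjusted p = 0.0471) in null Hras cells and 2.34 ± 0.11 (adjusted p = 2.7e-12) in WT Hras cells. The 7 basal keratinocyte markers were at a mean log2 level between 12.06 and 12.52 in every group, so the labelled cell type carried its basal markers. They were not constant: with Hras 5 fell and 1 rose in null cells (20.5% and 20.2% of all genes). In WT cells 4 fell and 0 rose (19% and 18.4% of all genes). The lowest change was that of Trp63, -1.05 in null and -1.02 in WT cells. The mean of 5 suprabasal markers, among them the members Krtdap and Sbsn, was lower with Hras. In DMSO it was 10.01 in null Hras against 12.38 in null mock cells. In WT cells it was 9.45 against 12.04. Of the 5, 4 fell in null and 5 in WT cells (20.5% and 19% of all genes). The spread among arrays of a group was wider for the members than for all genes in several groups: the median SD was 0.241 over members against 0.0795 over all genes in null Hras DMSO cells, and 0.317 against 0.0757 in WT Hras DMSO cells. In WT mock DMSO cells it was 0.0758 against 0.0662. In null Hras GW0742 cells it was 0.169 over members, and the 0.122 over all genes was the highest of the 8 groups, the others lying between 0.0647 and 0.0798. When arrays were weighted by their agreement with the model, replicates 1, 2 and 3 of that group got weights of 0.233, 2.56 and 0.347, and those of replicates 1 and 3 were the lowest of all 24 arrays. As a guide to background, 95% of 1027 olfactory receptor genes had a mean under 6.83. All 54 members had a group mean above that level, and Flg2, Lce3b, Rptn and Sprr3 had their lowest group mean below it.

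Promoter sequences are shown for 7 members that behaved differently in the comparisons that follow: Sprr2f and Sprr2b from the Sprr2 family, Lce1b and Lce1h from the Lce1 cluster, Lce3f, and the envelope scaffold genes Ivl and Lor. RefSeq (GRCm38.p6) gave windows of 250 bases before and 50 after the start for 48 of the 54 members, 52 windows in all. Calml3, Evpl, Lce1f, Ppl, Sprr2g and Sprr2j-ps had none. Letters are lower case and capitals mark the AP-1 motif TGANTCA and the TATA box TATAAA, searched on both strands with N for any base. The AP-1 motif is a binding sequence of Fos and Jun proteins.
Sprr2f: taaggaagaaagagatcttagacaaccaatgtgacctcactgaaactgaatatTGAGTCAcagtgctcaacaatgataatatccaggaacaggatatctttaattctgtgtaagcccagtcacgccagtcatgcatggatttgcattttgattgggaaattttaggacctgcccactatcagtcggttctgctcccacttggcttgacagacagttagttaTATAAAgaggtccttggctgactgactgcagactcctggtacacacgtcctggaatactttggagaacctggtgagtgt
Sprr2b: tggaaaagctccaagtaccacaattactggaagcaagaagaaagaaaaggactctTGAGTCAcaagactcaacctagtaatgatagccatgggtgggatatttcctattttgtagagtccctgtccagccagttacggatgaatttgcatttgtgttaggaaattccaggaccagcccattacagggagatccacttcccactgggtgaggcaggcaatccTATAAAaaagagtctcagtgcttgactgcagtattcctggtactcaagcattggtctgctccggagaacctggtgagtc
Lce1b: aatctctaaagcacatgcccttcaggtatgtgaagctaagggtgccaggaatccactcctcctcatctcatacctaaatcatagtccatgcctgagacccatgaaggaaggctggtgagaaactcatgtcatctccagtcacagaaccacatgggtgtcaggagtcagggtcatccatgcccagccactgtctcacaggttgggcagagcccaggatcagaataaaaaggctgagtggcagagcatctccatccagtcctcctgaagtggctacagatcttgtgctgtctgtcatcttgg
Lce1h: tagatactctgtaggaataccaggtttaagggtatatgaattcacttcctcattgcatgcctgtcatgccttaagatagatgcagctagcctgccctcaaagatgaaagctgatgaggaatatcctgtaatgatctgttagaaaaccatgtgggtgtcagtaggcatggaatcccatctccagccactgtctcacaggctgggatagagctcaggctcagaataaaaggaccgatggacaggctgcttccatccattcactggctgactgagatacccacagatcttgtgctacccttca
Lce3f: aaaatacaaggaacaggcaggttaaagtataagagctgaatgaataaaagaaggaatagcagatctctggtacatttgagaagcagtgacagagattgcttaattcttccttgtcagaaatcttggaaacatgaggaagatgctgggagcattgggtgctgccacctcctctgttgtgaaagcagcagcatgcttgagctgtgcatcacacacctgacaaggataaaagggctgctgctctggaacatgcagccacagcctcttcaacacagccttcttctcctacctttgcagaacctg
Ivl: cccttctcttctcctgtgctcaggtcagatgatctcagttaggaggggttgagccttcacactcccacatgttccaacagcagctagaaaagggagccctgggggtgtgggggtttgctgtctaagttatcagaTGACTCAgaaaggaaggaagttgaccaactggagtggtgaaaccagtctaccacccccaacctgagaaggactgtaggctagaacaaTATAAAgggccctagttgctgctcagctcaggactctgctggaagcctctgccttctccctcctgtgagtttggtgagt
Lor: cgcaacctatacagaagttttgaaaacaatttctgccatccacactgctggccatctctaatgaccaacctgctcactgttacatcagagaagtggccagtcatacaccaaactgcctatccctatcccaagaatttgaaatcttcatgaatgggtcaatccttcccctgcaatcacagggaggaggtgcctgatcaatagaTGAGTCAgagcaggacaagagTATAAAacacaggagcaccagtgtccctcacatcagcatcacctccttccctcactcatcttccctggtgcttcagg
Their positions are chr3:92364937-92365236, plus strand for Sprr2f, chr3:92316455-92316754, plus strand for Sprr2b, chr3:92656877-92657176, minus strand for Lce1b and chr3:92765016-92765315, minus strand for Lce1h. Lce3f is at chr3:92991967-92992266, plus strand, Ivl at chr3:92573686-92573985, minus strand and Lor at chr3:92083093-92083392, minus strand.

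The Sprr2 promoters shared both motifs. All 7 Sprr2 windows held TGANTCA and all 7 held TATAAA, which lies 29 bases before the start in Sprr2f and Sprr2b. Of the 12 Lce1 windows 0 held the AP-1 letters and 1 held TATAAA, and of the 5 Lce3 windows 0 and 1 did. The Lce1 match, in Lce1d, lay 30 bases before the start. That of Lce3, in Lce3e, lay 243 bases before it and on the opposite strand. Only these exact letters were counted, at any position in the window, so a related AT-rich stretch near the start was not. Over the 52 member windows each motif was found in 20 (38.5%), against 7.81% and 13.6% of 32851 promoter windows of the same length for AP-1 and TATA box. The grainyhead motif AACCNGTT was in 2 member windows (3.85%) and in 2.09% of all windows. The direct repeat 1 to which PPARs bind (2 copies of AGGTCA with 1 base between them) was in 0 member windows and 0.0396% of all. A match of letters is a description and not a site. Identity between windows of a family had a median of 66.7% over 21 pairs of Sprr2 windows, 66.6% over 66 pairs of Lce1 windows and 59.5% over 10 pairs of Lce3 windows, against 52.1% between Lce1 and Sprr2 windows. The lowest Lce1 pair, at 51.0%, lay within the range of 48.3% to 55.2% between Lce1 and Sprr2 windows, while the lowest Sprr2 pair was at 61.9% and the lowest Lce3 pair at 56.4%. Sprr2f and Sprr2b were 65.7% identical, and Lce1h and Lce1b 66.5%.

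Across the 8 groups, 24 members had their highest mean in null Hras GW0742 cells and 27 their lowest in WT Hras DMSO cells. WT mock cells held the highest mean of another 13 with GW0742 and of 10 with DMSO. The distance between a gene's highest and lowest group mean ran between 0.0647 for Sprr1a and 4.38 for Sprr2j-ps on the log2 scale, and was 4.22 for Lce3a and 4.10 for Lce3f.

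**Figure D1:**
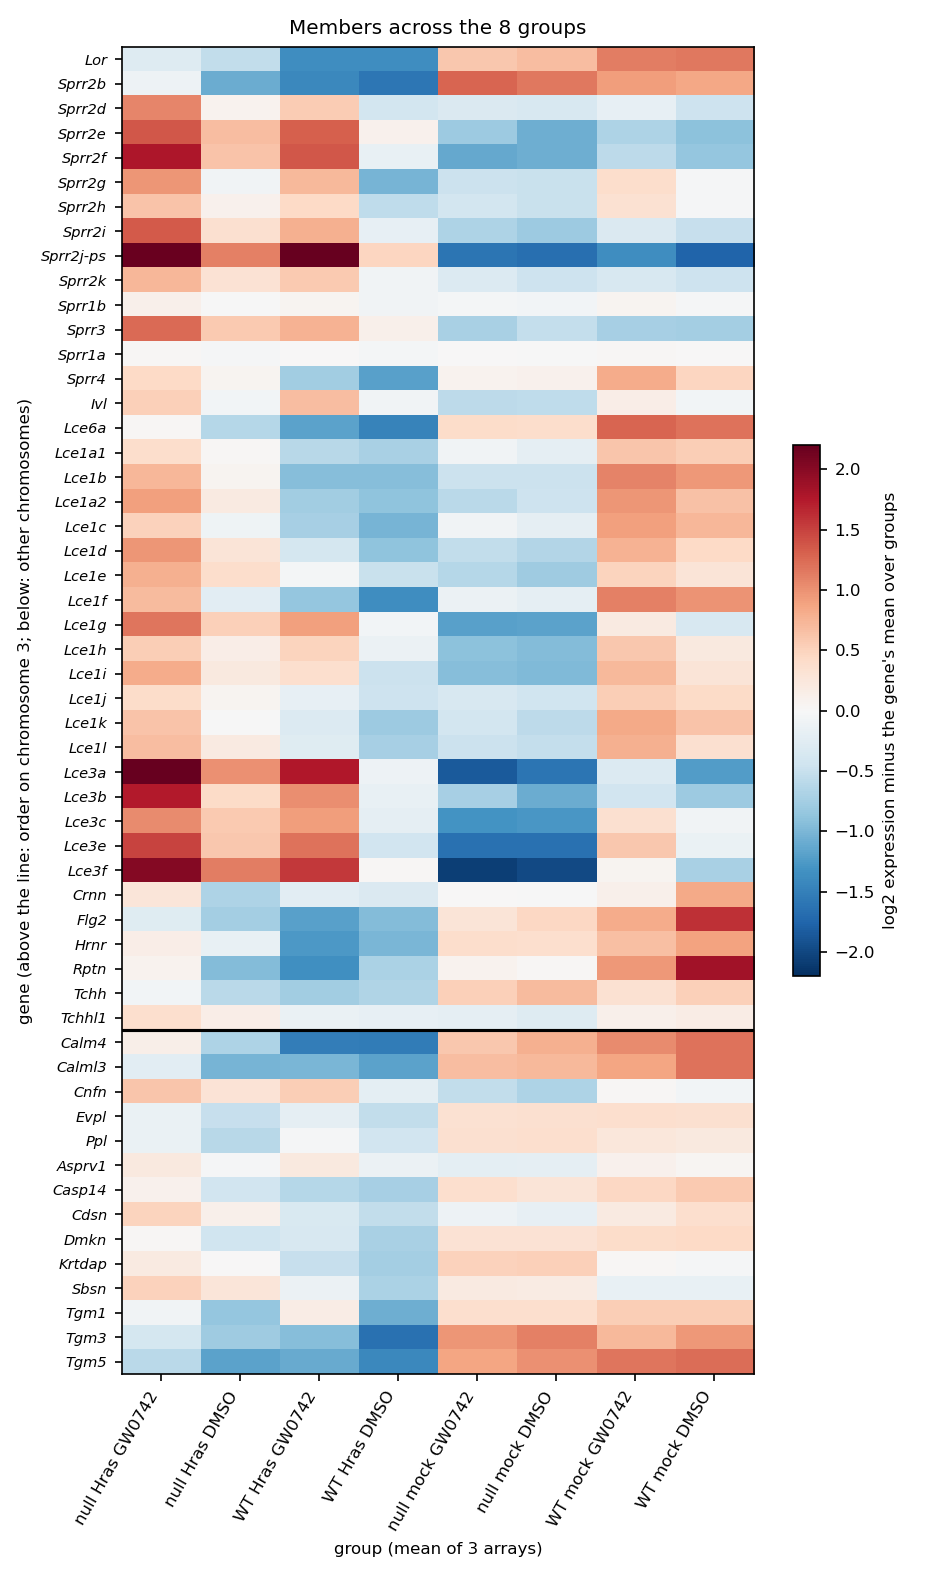
Mean log2 expression of each of the 54 members in the 8 groups, minus that gene's mean over the groups, in red for higher and blue for lower; colours stop at 2.2 in either direction. Members above the line are in their order on chromosome 3. In the 2 Hras GW0742 columns the Sprr2 rows other than Sprr2b and the Lce3 rows are red, and in the 2 Hras DMSO columns Lor, Lce6a, Tgm3 and Tgm5 are blue.

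Most envelope genes changed with Hras, and several moved in opposite directions in the 2 genotypes. In null cells, 26 of the 54 members rose with Hras and 18 fell (20.2% of all genes rose and 20.5% fell). In WT cells, 6 rose and 36 fell (18.4% rose and 19% fell among all genes). The median change of the members was 0.36 in null cells and -0.88 in WT cells, against 0.00 and 0.02 over all genes. The difference between the genotypes' Hras effects was itself tested: it passed for 40 members, positive (null above WT) for 39 and negative for 1 (8.35% and 8.41% of all genes), with a median of 1.13 against -0.01 over all genes. The 2 Hras effects come from different arrays. In bulk RNA, fewer cells of a type and less RNA per cell cannot be told apart.

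By direction, 11 members rose in null and fell in WT cells: Sprr2h, Tchhl1 and 9 Lce1 genes (Lce1a2, Lce1b, Lce1d, Lce1e, Lce1h, Lce1i, Lce1j, Lce1k and Lce1l). The null call of Lce1a2, Lce1b and Lce1k was lost when some single array was left out, as was the WT call of Lce1h, Lce1i and Tchhl1. Both calls of Lce1d, Lce1e, Lce1j, Lce1l and Sprr2h held without each array in turn. Another 18 fell in both genotypes and 6 rose in both. In null cells alone 9 passed, all of them higher, and in WT cells alone 7 passed, all of them lower. Sprr1a, Sprr1b and Sprr2d passed in neither.

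**Figure D2:**
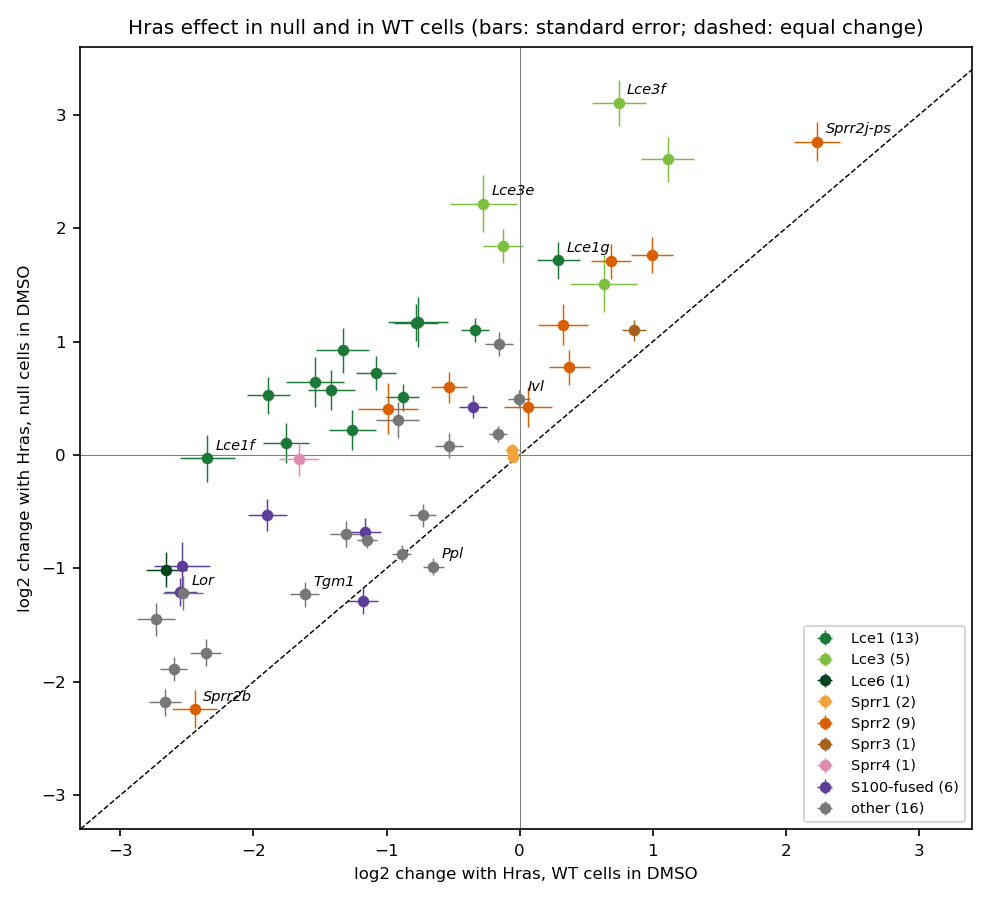
Log2 change with Hras in null cells (vertical) against WT cells (horizontal), both in DMSO, 1 point per member with its standard errors, coloured by gene group. Points above the dashed line changed further upward in null than in WT cells; the Lce1 points lie left of 0 and at or above 0, apart from Lce1g on the right and Lce1f just under 0, and Ppl and Tchh lie below the line.

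The Lce1 genes, which encode small cysteine- and glycine-rich envelope proteins made late in differentiation, differed in their response between the genotypes. In null cells 10 of the 13 rose with Hras, and in WT cells 12 of the 13 fell. The difference passed for all 13, and ranged between 1.39 for Lce1j and 2.42 for Lce1b.

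Lce1b read 9.44, 10.23 and 9.98 in null Hras cells and 9.69, 9.14 and 9.24 in null mock cells. It read 8.67, 8.79 and 9.20 in WT Hras cells and 10.79, 10.78 and 10.76 in WT mock cells. In null cells 2 of the 3 Hras arrays lay above all mock arrays and the other within their range, while in WT cells all Hras arrays lay below all mock arrays. Its change was 0.53 ± 0.16 (adjusted p = 0.0118) in null and -1.89 ± 0.16 (adjusted p = 3.79e-09) in WT cells, and the difference was 2.42 ± 0.23 (adjusted p = 4.19e-07). In null cells the call was lost without null Hras DMSO replicate 2, null mock DMSO replicate 2 or null mock DMSO replicate 3 (adjusted p between 0.0538 and 0.106), while the difference passed without each array in turn.

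Lce1d read 8.66, 9.55 and 9.42 in null Hras cells and 8.51, 8.12 and 8.24 in null mock cells, with no overlap. In WT cells it read 7.69, 7.89 and 8.53 with Hras and 9.58, 9.29 and 9.24 after mock transduction, again with no overlap but in the other direction. The difference was 2.26 ± 0.28 (adjusted p = 7.45e-06).

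Lce1f had a change of -0.03 ± 0.21 (adjusted p = 0.937) in null cells, which did not pass, and fell by 2.35 ± 0.21 (adjusted p = 5e-09) in WT cells, where it read 6.94, 7.05 and 7.78 with Hras and 9.75, 9.47 and 9.59 without.

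Lce1g, Lce1e, Lce1h and Lce1i, which RefSeq places in 1 stretch with Lce1f, had the 4 highest values of the 13 in WT cells, with changes of 0.29, -0.78, -0.33 and -0.76, of which Lce1g did not pass. They also had the 4 largest rises of the group in null cells, 1.72, 1.17, 1.10 and 1.17. These 4 were singled out after their values were seen. Lce1h read 12.20, 12.61 and 12.65 in null Hras cells and 11.44, 11.20 and 11.51 in null mock cells, and 12.20, 12.19 and 12.27 in WT Hras cells and 12.64, 12.51 and 12.52 in WT mock cells. The groups did not overlap in either genotype. The call of Lce1h in WT cells was lost without WT mock DMSO replicate 1 (adjusted p = 0.0594), and that of Lce1i without WT Hras DMSO replicate 1 (adjusted p = 0.0697).

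The Lce3 genes, whose human counterparts are known for induction in disturbed epidermis, rose with Hras in null cells in 5 of 5 cases, by 1.51 to 3.11. The 1.51 is that of Lce3b, whose null mock mean of 5.83 lay under the background guide of 6.83, so its size is uncertain. In WT cells 2 of the 5 rose, Lce3a at 1.11 ± 0.20 (adjusted p = 9.23e-05) and Lce3f at 0.74 ± 0.20 (adjusted p = 0.00544). The call of Lce3f in WT cells was lost without WT Hras DMSO replicate 3 (adjusted p = 0.0557).

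Lce3f read 9.73, 10.52 and 10.45 in null Hras cells and 7.52, 6.91 and 6.94 in null mock cells, a change of 3.11 ± 0.20 (adjusted p = 3.97e-11). In WT cells it read 8.74, 9.06 and 9.60 with Hras and 8.49, 8.18 and 8.50 without. All Hras arrays were above all mock arrays in both genotypes, and the difference was 2.36 ± 0.29 (adjusted p = 6.73e-06).

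Lce3e read 10.93, 11.52 and 11.72 in null Hras cells and 9.63, 8.82 and 9.08 in null mock cells. It read 9.72, 10.51 and 10.90 in WT Hras cells and 10.82, 10.53 and 10.61 in WT mock cells. The null groups were far apart and the WT groups overlapped. The largest difference of any member, 2.49 ± 0.35 (adjusted p = 3.52e-05), was that of Lce3e, which had a change of 2.22 ± 0.25 in null and -0.27 ± 0.25 (adjusted p = 0.456) in WT cells. Lce6a, the remaining Lce gene, fell in both, by 1.01 ± 0.15 in null and 2.66 ± 0.15 in WT cells.

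The Sprr genes, whose proline-rich products act as cross-bridges in the envelope, did not move as 1 family. In null cells 6 of the 9 Sprr2 genes rose with Hras and 1 fell, and in WT cells 3 rose and 3 fell.

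Sprr2f read 8.58, 9.25 and 9.15 in null Hras cells and 7.35, 7.10 and 7.40 in null mock cells, a change of 1.71 ± 0.15 (adjusted p = 5.45e-09). In WT cells it read 7.98, 8.12 and 8.48 with Hras and 7.50, 7.44 and 7.58 without, a change of 0.69 ± 0.15 (adjusted p = 0.000921). The Hras arrays were higher without overlap in both genotypes, and the difference was 1.02 ± 0.22 (adjusted p = 0.00188).

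Sprr2b, of the same family and with the same motifs in its promoter, read 9.43, 9.85 and 9.74 in null Hras cells and 12.17, 11.82 and 11.76 in null mock cells, a fall of 2.24 ± 0.17. It fell by 2.44 ± 0.17 in WT cells, where it read 9.01, 8.98 and 9.54 with Hras and 11.68, 11.45 and 11.72 without. The groups did not overlap, and the difference between genotypes, 0.20 ± 0.24 (adjusted p = 0.682), did not pass.

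Sprr2j-ps, annotated by RefSeq as a transcribed pseudogene, rose in both genotypes, by 2.77 ± 0.17 (adjusted p = 1.65e-11) in null and 2.24 ± 0.17 (adjusted p = 5.39e-10) in WT cells. Sprr2e rose by 1.76 ± 0.16 and 1.00 ± 0.16. Sprr2g, the other transcribed pseudogene, had a change of 0.41 ± 0.22 (adjusted p = 0.166) in null cells and fell by 0.99 ± 0.22 in WT cells. Sprr2d had a change of 0.42 ± 0.18 (adjusted p = 0.0631) in null and 0.06 ± 0.18 (adjusted p = 0.835) in WT cells and passed in neither.

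Sprr3, best known from moist epithelia such as the oesophagus, rose in both, by 1.10 ± 0.09 in null and 0.86 ± 0.09 in WT cells. Its mock means, 6.61 in null and 6.40 in WT cells, lay under the background guide, so the size of these rises is uncertain too. Sprr4 was lower with Hras in WT cells, where it read 8.21, 8.62 and 9.01 with Hras and 10.35, 10.20 and 10.26 without, and its difference between genotypes was 1.62 ± 0.21 (adjusted p = 1.51e-05). Its change in null cells was -0.04 ± 0.15 (adjusted p = 0.882). Sprr1a and Sprr1b passed in none of the 12 comparisons. Their group means spanned only 14.20 to 14.27 for Sprr1a and 13.66 to 13.86 for Sprr1b, near the maximum of 14.8 on these arrays, and whether their signal was saturated was not tested.

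Lor (loricrin, the major protein of the mouse envelope) read 10.25, 10.77 and 10.70 in null Hras cells and 11.99, 11.52 and 11.86 in null mock cells, a fall of 1.22 ± 0.15 (adjusted p = 8.18e-07). It fell by 2.53 ± 0.15 (adjusted p = 1.03e-11) in WT cells, where it read 9.38, 9.75 and 10.10 with Hras and 12.26, 12.19 and 12.37 without. All Hras arrays lay below all mock arrays, and the fall was larger in WT cells, with a difference of 1.31 ± 0.22 (adjusted p = 0.000174).

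Ivl (involucrin) read 11.80, 11.79 and 11.82 in null Hras cells and 11.51, 11.14 and 11.28 in null mock cells, a rise of 0.49 ± 0.08 (adjusted p = 3.55e-05). In WT cells it read 11.76, 11.85 and 11.78 with Hras and 11.76, 11.75 and 11.89 without, and the arrays overlapped. Its difference was 0.50 ± 0.12 (adjusted p = 0.00446). Cnfn (cornifelin) rose by 0.98 ± 0.10 in null cells and had a change of -0.15 ± 0.10 (adjusted p = 0.294) in WT cells.

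The plakins Evpl and Ppl, scaffold proteins that tie the envelope to keratins, fell in both genotypes. Evpl fell by 0.87 ± 0.07 in null and 0.89 ± 0.07 in WT cells. Ppl fell by 0.98 ± 0.08 and 0.65 ± 0.08, and was the single member whose difference passed in the negative direction, at -0.34 ± 0.11 (adjusted p = 0.0403). That call was lost without WT Hras DMSO replicate 2, WT Hras DMSO replicate 3, WT mock DMSO replicate 1, WT mock DMSO replicate 2, null Hras DMSO replicate 1, null mock DMSO replicate 2 or null mock DMSO replicate 3 (adjusted p between 0.0553 and 0.115), and also with each array centred on its median (adjusted p = 0.0612).

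The S100-fused proteins carry a calcium-binding domain before long repeats and are made in granular cells. In null cells 5 of the 6 fell with Hras and Tchhl1 rose, and in WT cells all 6 fell.

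Rptn (repetin) read 6.70, 7.03 and 6.92 in null Hras cells and 8.31, 7.75 and 7.51 in null mock cells. It read 6.49, 7.36 and 7.57 in WT Hras cells and 9.72, 9.66 and 9.66 in WT mock cells. With Hras Rptn fell by 0.98 ± 0.21 in null cells and fell by 2.54 ± 0.21 in WT cells, without overlap in either, and the difference was 1.56 ± 0.30 (adjusted p = 0.000724). Flg2 (filaggrin-2) fell by 1.21 ± 0.12 in null cells and fell by 2.55 ± 0.12 in WT cells, but its Hras means, 6.15 in null and 5.96 in WT cells, lay under the background guide of 6.83, so the size of these falls is uncertain and may be understated. Hrnr (hornerin) fell by 0.53 ± 0.14 in null cells and fell by 1.90 ± 0.14 in WT cells. Tchh (trichohyalin, known from the inner root sheath of the hair) fell by 1.28 ± 0.11 in null and 1.18 ± 0.11 in WT cells, and its difference, -0.11 ± 0.16 (adjusted p = 0.764), did not pass. Tchhl1 rose by 0.43 ± 0.10 in null and fell by 0.35 ± 0.10 in WT cells, and its call in WT cells was lost without WT Hras DMSO replicate 2 or WT mock DMSO replicate 3 (adjusted p between 0.0559 and 0.0632).

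The 3 transglutaminases, which form the cross-links of the envelope, fell in both genotypes. Tgm1, the main membrane-bound one, read 10.12, 10.53 and 10.34 in null Hras cells and 11.63, 11.46 and 11.59 in null mock cells. It read 9.97, 10.15 and 10.24 in WT Hras cells and 11.71, 11.74 and 11.74 in WT mock cells. The groups did not overlap, and the falls were 1.23 ± 0.11 and 1.61 ± 0.11, with a difference of 0.39 ± 0.15 (adjusted p = 0.0963) that did not pass. Tgm3 fell by 1.89 ± 0.10 in null cells and fell by 2.60 ± 0.10 in WT cells. Tgm5 fell by 2.18 ± 0.12 in null cells and fell by 2.66 ± 0.12 in WT cells.

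Of the other members, Calm4, a skin calmodulin-related protein, had the largest fall of any member in WT cells, 2.73 ± 0.14, and fell by 1.45 ± 0.14 in null cells. Casp14, a caspase that helps to break down filaggrin, fell by 0.70 ± 0.12 and 1.31 ± 0.12. Asprv1, a protease that cleaves the filaggrin precursor, had a change of 0.19 ± 0.07 in null and -0.16 ± 0.07 (adjusted p = 0.072) in WT cells, and its rise in null cells was lost without null Hras DMSO replicate 2, null Hras DMSO replicate 3, null mock DMSO replicate 2 or null mock DMSO replicate 3 (adjusted p between 0.089 and 0.172). Cdsn (corneodesmosin, an adhesive protein between corneocytes) had a change of 0.31 ± 0.16 (adjusted p = 0.146) in null cells and fell by 0.92 ± 0.16 in WT cells. Among the secreted proteins, Krtdap fell by 0.53 ± 0.10 and 0.73 ± 0.10, and Sbsn (suprabasin) had a change of 0.08 ± 0.11 (adjusted p = 0.612) in null cells and fell by 0.53 ± 0.11 in WT cells.

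Leaving out each array in turn, 40 of the 44 calls held in null cells, 38 of the 42 in WT cells and 36 of the 40 differences.

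**Figure D3:**
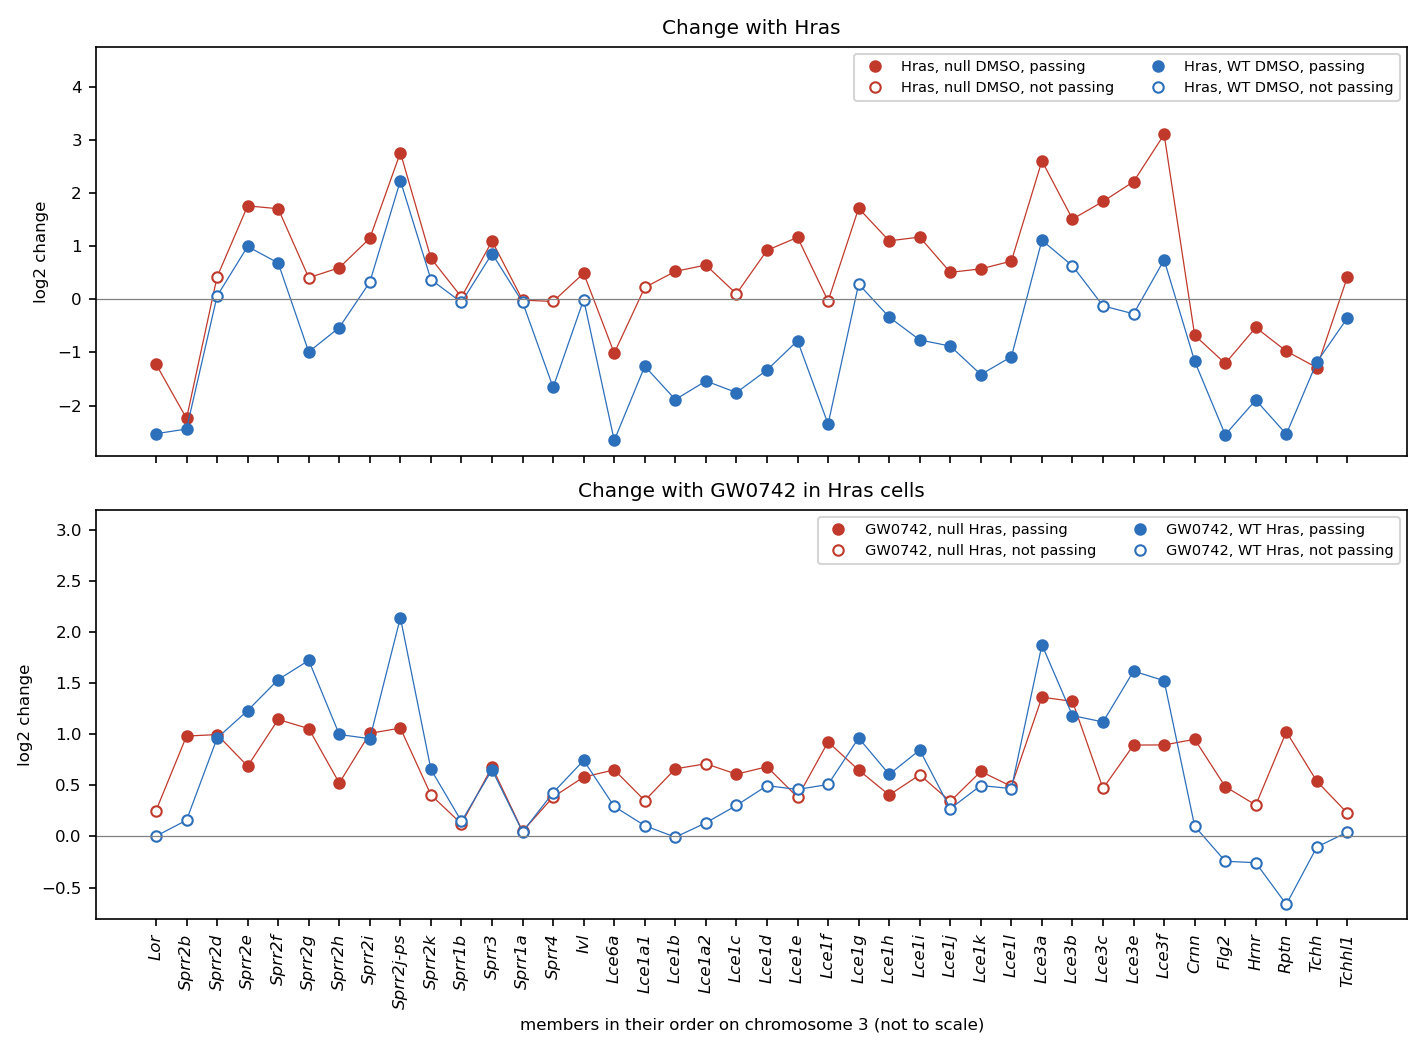
Log2 change of the 40 members on chromosome 3 in their order along it (not to scale), with Hras above and with GW0742 in Hras cells below; red is null, blue is WT, and filled points passed. The red line runs above the blue one over the whole Lce1 and Lce3 stretch with Hras, while in the lower panel the blue line is the higher at 17 of the 40, among them Sprr2e to Sprr2h, Sprr2j-ps and the Lce3 genes apart from Lce3b, and lies below 0 at Flg2, Hrnr, Rptn and Tchh and by less than the point size at Lce1b.

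After mock transduction many envelope genes were lower in null than in WT cells. In mock DMSO cells 29 members were lower and 2 higher in null against WT (5.53% and 4.89% of all genes), with a median difference of -0.46 against 0.03 over all genes. After Hras the order was the other way round: 35 were higher in null and 0 lower (10.1% and 9.32% of all genes), with a median of 0.61 against 0.02. These comparisons use the arrays of the Hras effects above, so they are another view of the same values and not separate evidence.

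All 13 Lce1 genes were lower in null mock cells, by 0.74 for Lce1a1 to 1.42 for Lce1b, without overlap of the arrays. With Hras 12 of the 13 were higher in null cells, by up to 1.17 for Lce1d. Lce1h, at 0.26 ± 0.10 (adjusted p = 0.0849), did not pass there. Of the Lce3 genes 3 of 5 were lower in null mock cells and 4 of 5 higher in null Hras cells. Lce3f was -1.27 ± 0.20 (adjusted p = 2e-04) in the mock cells and 1.10 ± 0.20 (adjusted p = 0.000462) in the Hras cells.

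Rptn had the largest gap of any member in mock cells, -1.82 ± 0.21 (adjusted p = 3.73e-06), and after Hras it was -0.26 ± 0.21 (adjusted p = 0.472), which did not pass. Flg2 was lower in null mock cells by 1.15 ± 0.12. Ivl was lower by 0.49 ± 0.08 in null mock cells and did not pass after Hras (0.01 ± 0.08 (adjusted p = 0.978)).

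Krtdap and Sbsn were the 2 members higher in null mock cells. Krtdap read 13.55, 13.57 and 13.61 in null mock cells and 13.10, 13.02 and 12.96 in WT mock cells, a difference of 0.55 ± 0.10 (adjusted p = 0.000814). Sbsn read 12.43, 12.43 and 12.47 in null mock cells and 12.04, 12.12 and 12.12 in WT mock cells. In both genes the null arrays were the higher ones with no overlap, but the call of Sbsn (0.35 ± 0.11 (adjusted p = 0.0396)) was lost without any 1 of the 6 arrays (adjusted p between 0.0786 and 0.14). After Hras Sbsn was 0.97 ± 0.11 (adjusted p = 1.42e-06) and Krtdap 0.75 ± 0.10 (adjusted p = 1.45e-05).

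Lor was -0.48 ± 0.15 (adjusted p = 0.0466) in mock cells, a call lost without WT mock DMSO replicate 1, WT mock DMSO replicate 2, WT mock DMSO replicate 3, null mock DMSO replicate 2 or null mock DMSO replicate 3 (adjusted p between 0.0731 and 0.235), and 0.83 ± 0.15 (adjusted p = 0.000417) in Hras cells. The largest difference after Hras was that of Sprr4, 1.24 ± 0.15 (adjusted p = 3.87e-06), with 9.66, 9.96 and 9.94 in null against 8.21, 8.62 and 9.01 in WT cells and no overlap. With only the 6 arrays compared, 23 members were higher in null Hras cells in place of 35. Of the calls 23 of 31 in mock cells and 27 of 35 in Hras cells held without each array in turn.

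**Figure D4:**
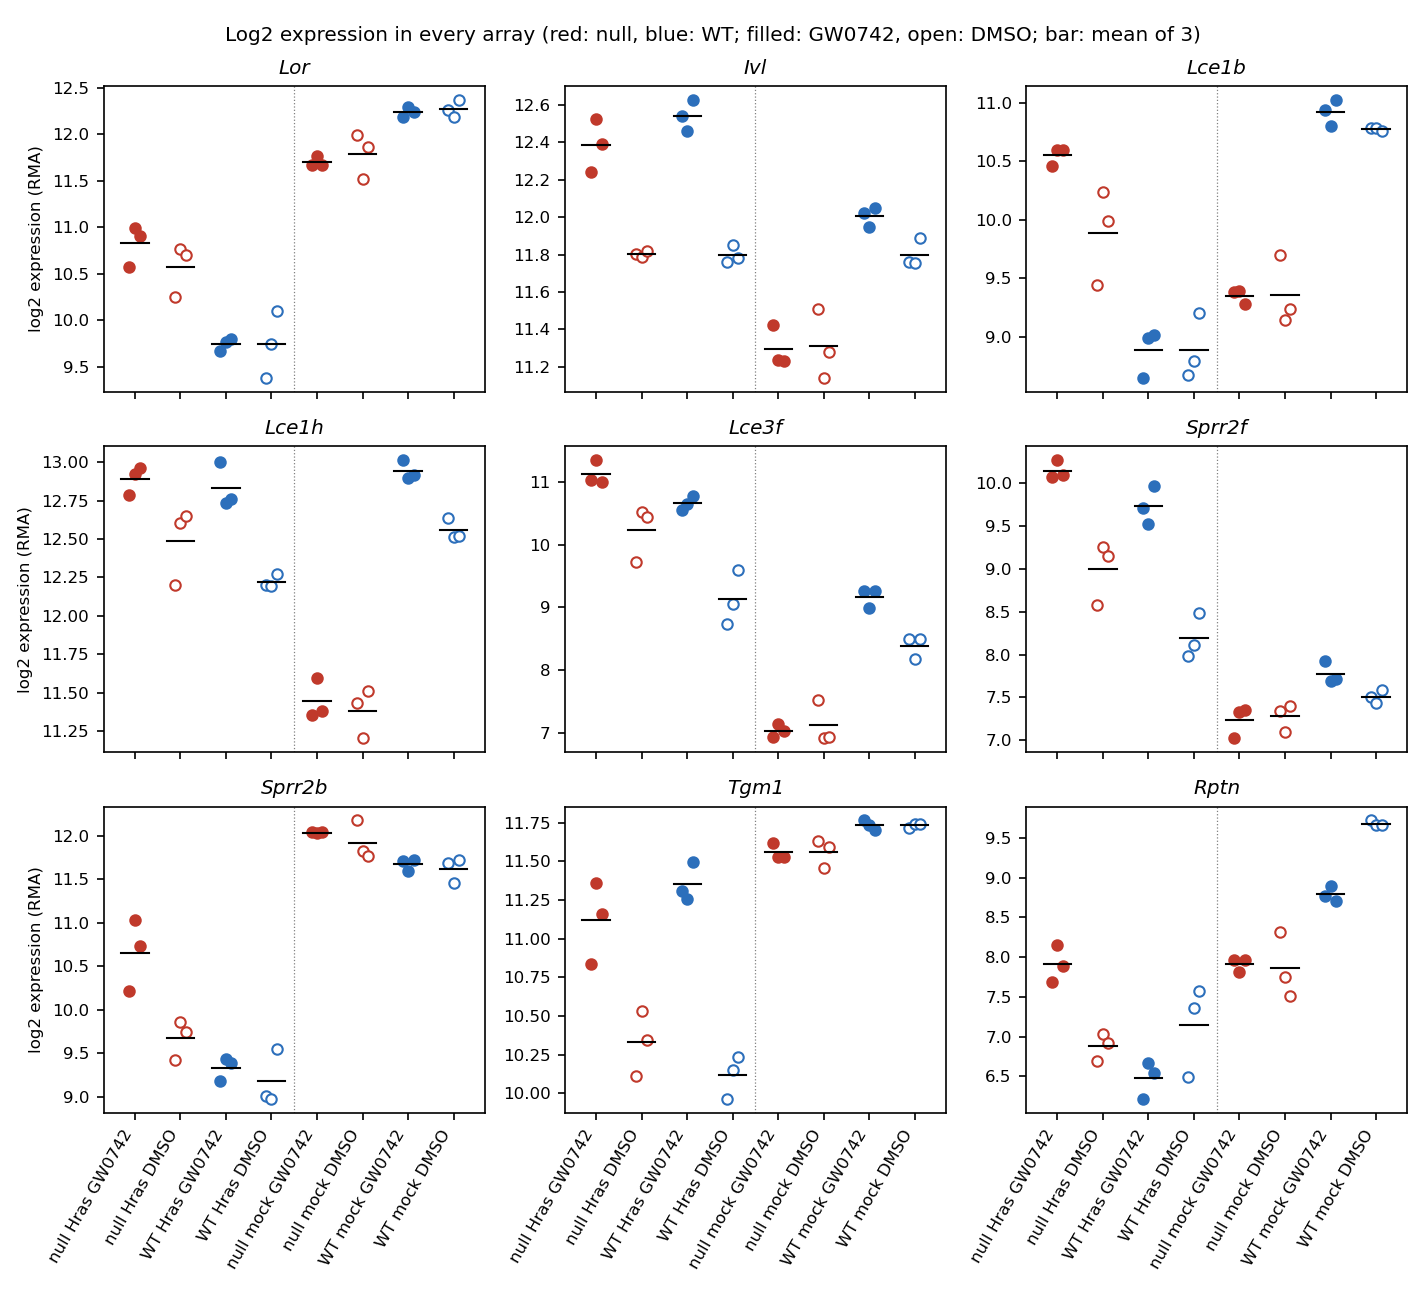
Log2 expression of 9 members in every array, with 1 panel per gene on its own scale; red is null, blue is WT, filled is GW0742, open is DMSO, bars are means of 3 arrays, and the dotted line parts Hras (left) from mock (right). Lce1b is higher in null than in WT cells with Hras and lower after mock transduction, Ivl, Sprr2f and Tgm1 are higher with GW0742 in Hras cells of both genotypes, and Rptn with GW0742 in null Hras cells.

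In the model of all 24 arrays, many envelope genes rose with GW0742 in Hras cells of both genotypes, and few in mock cells. Whether the GW0742 effect differed between Hras and mock cells was tested in WT cells and was not tested in null cells. In null Hras cells 36 of the 54 members rose and 0 fell (3.51% and 1.51% of all genes), with a median of 0.58 against 0.00 over all genes. In WT Hras cells 26 rose and 0 fell (4.46% and 1.65%), with a median of 0.44 against -0.01. Of the members 21 rose in both, 15 in null cells alone and 5 in WT cells alone. All GW0742 arrays lay above all DMSO arrays for 46 members in null cells (8.62% of all genes) and 30 in WT cells (11.3% of all genes). The count in null cells rests on the shared estimate of the spread and on single arrays. With only the 6 arrays compared 0 members passed by limma (lowest adjusted p = 0.0507), and 44 had an unadjusted p under 0.05. It was 16 without GW0742 replicate 2 and 19 without DMSO replicate 1, and 16 of the 36 calls held without each array in turn, against 24 of 26 in WT cells. DMSO replicate 1 read low among the null Hras arrays: the mean over the 13 Lce1 genes was 10.22 in it against 10.96 and 10.93 in the other two, and with GW0742 it was 11.15, 11.38 and 11.30. The WT Hras DMSO arrays were spread as well, at 9.63, 9.77 and 10.23 for the same mean.

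The Lce3 and Sprr2 genes had the largest changes. In null Hras cells 4 of 5 Lce3 and 8 of 9 Sprr2 genes rose with GW0742, and in WT Hras cells 5 of 5 and 8 of 9.

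Lce3a read 11.09, 11.30 and 11.26 with GW0742 and 9.65, 10.14 and 9.77 with DMSO in null Hras cells, a rise of 1.36 ± 0.20 (adjusted p = 0.000301). In WT Hras cells it read 10.28, 10.62 and 10.93 with GW0742 and 8.31, 8.70 and 9.20 with DMSO, a rise of 1.88 ± 0.20 (adjusted p = 1.25e-06). The arrays did not overlap in either genotype.

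Sprr2f read 10.06, 10.26 and 10.09 with GW0742 in null Hras cells, a rise of 1.15 ± 0.15 (adjusted p = 0.000152) over the DMSO values given above. In WT Hras cells it read 9.70, 9.52 and 9.97, a rise of 1.54 ± 0.15 (adjusted p = 4.99e-07). Sprr2j-ps had the largest rise in WT Hras cells, 2.14 ± 0.17 (adjusted p = 2.12e-08), with 11.53, 11.49 and 11.81 with GW0742 against 9.15, 9.43 and 9.83 with DMSO and no overlap. Sprr2b rose in null Hras cells (0.98 ± 0.17 (adjusted p = 0.00117)) and was the Sprr2 gene that did not pass in WT Hras cells (0.16 ± 0.17 (adjusted p = 0.746)).

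Of the Lce1 genes 7 of 13 rose in null Hras and 3 of 13 in WT Hras cells. Each of the 7 calls in null Hras cells was lost when some single array was left out. In WT Hras cells the calls of Lce1g and Lce1h held without each array in turn, and that of Lce1i did not. Lce1h averaged 12.83 ± 0.15 with GW0742 and 12.22 ± 0.04 with DMSO in WT Hras cells (SD, n = 3 each), a rise of 0.61 ± 0.10 (adjusted p = 0.000449). Lce1b, at -0.01 ± 0.16 (adjusted p = 0.993), did not pass there.

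Tgm1 rose in Hras cells of both genotypes. With GW0742 it read 10.84, 11.36 and 11.16 in null Hras cells, a rise of 0.79 ± 0.11 (adjusted p = 0.000165). It read 11.31, 11.26 and 11.50 in WT Hras cells, a rise of 1.24 ± 0.11 (adjusted p = 7.64e-08) over DMSO, without overlap. Ivl rose by 0.58 ± 0.08 (adjusted p = 0.000227) in null and 0.74 ± 0.08 (adjusted p = 2.24e-06) in WT Hras cells. It read 12.24, 12.52 and 12.39 with GW0742 in null Hras cells and 12.54, 12.46 and 12.63 in WT Hras cells, in each case above the DMSO values given above. Ppl rose by 0.47 ± 0.08 and 0.41 ± 0.08, and Sprr3 by 0.68 ± 0.09 and 0.65 ± 0.09. Lor passed in neither, with 0.25 ± 0.15 (adjusted p = 0.446) in null and 0.00 ± 0.15 (adjusted p = 0.997) in WT Hras cells.

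Among the S100-fused genes 4 of the 6 rose with GW0742 in null Hras cells, and 0 of 6 passed in WT Hras cells. One of the 4 was Flg2, which read between 5.64 and 6.79 in all 12 Hras arrays, under the background guide of 6.83.

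Rptn read 7.69, 8.15 and 7.89 with GW0742 and 6.70, 7.03 and 6.92 with DMSO in null Hras cells, a rise of 1.02 ± 0.21 (adjusted p = 0.00489) without overlap. In WT Hras cells it read 6.22, 6.67 and 6.54 with GW0742 and 6.49, 7.36 and 7.57 with DMSO, where the arrays overlapped and the change of -0.66 ± 0.21 (adjusted p = 0.0678) did not pass. Crnn (cornulin) rose by 0.95 ± 0.12 (adjusted p = 0.000127) in null and had a change of 0.10 ± 0.12 (adjusted p = 0.797) in WT Hras cells.

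The difference between genotypes passed for 6 of the 54 members, 5 positive and 1 negative (0.517% and 1.21% of all genes), and its median was 0.03 against 0.01. The positive ones were Rptn at 1.69 ± 0.30 (adjusted p = 0.00267), Crnn at 0.85 ± 0.18 (adjusted p = 0.0112), Calm4 at 0.78 ± 0.20 (adjusted p = 0.0499), Flg2 at 0.73 ± 0.18 (adjusted p = 0.0337) and Tchh at 0.64 ± 0.16 (adjusted p = 0.0424), and the negative one was Sprr2j-ps at -1.08 ± 0.24 (adjusted p = 0.0218). The Flg2 value compares only arrays under the background guide and does not show a difference in expression above it. For Rptn the WT Hras GW0742 mean of 6.48 also lay under the guide. Rptn and Crnn passed without each array in turn. The call of Calm4 was lost without WT Hras DMSO replicate 2, WT Hras DMSO replicate 3, WT Hras GW0742 replicate 1, WT Hras GW0742 replicate 2, null Hras DMSO replicate 1, null Hras DMSO replicate 2, null Hras DMSO replicate 3, null Hras GW0742 replicate 2 or null Hras GW0742 replicate 3 (adjusted p between 0.0585 and 0.151), and that of Flg2 without WT Hras DMSO replicate 2, WT Hras DMSO replicate 3, WT Hras GW0742 replicate 1, WT Hras GW0742 replicate 2, null Hras DMSO replicate 1, null Hras DMSO replicate 3, null Hras GW0742 replicate 2 or null Hras GW0742 replicate 3 (adjusted p between 0.0596 and 0.106). That of Tchh was lost without WT Hras DMSO replicate 1, WT Hras DMSO replicate 3, WT Hras GW0742 replicate 1, WT Hras GW0742 replicate 3, null Hras DMSO replicate 1, null Hras DMSO replicate 2, null Hras GW0742 replicate 2 or null Hras GW0742 replicate 3 (adjusted p between 0.0657 and 0.131), and that of Sprr2j-ps without WT Hras DMSO replicate 1, WT Hras DMSO replicate 2, WT Hras GW0742 replicate 3, null Hras DMSO replicate 2, null Hras DMSO replicate 3 or null Hras GW0742 replicate 3 (adjusted p between 0.051 and 0.0733). The number passing was 3 without WT Hras DMSO replicate 2, WT Hras GW0742 replicate 1, each null Hras DMSO array or null Hras GW0742 replicate 2, and 2 without null Hras GW0742 replicate 3. With only the 12 arrays compared it was 1.

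**Figure D5:**
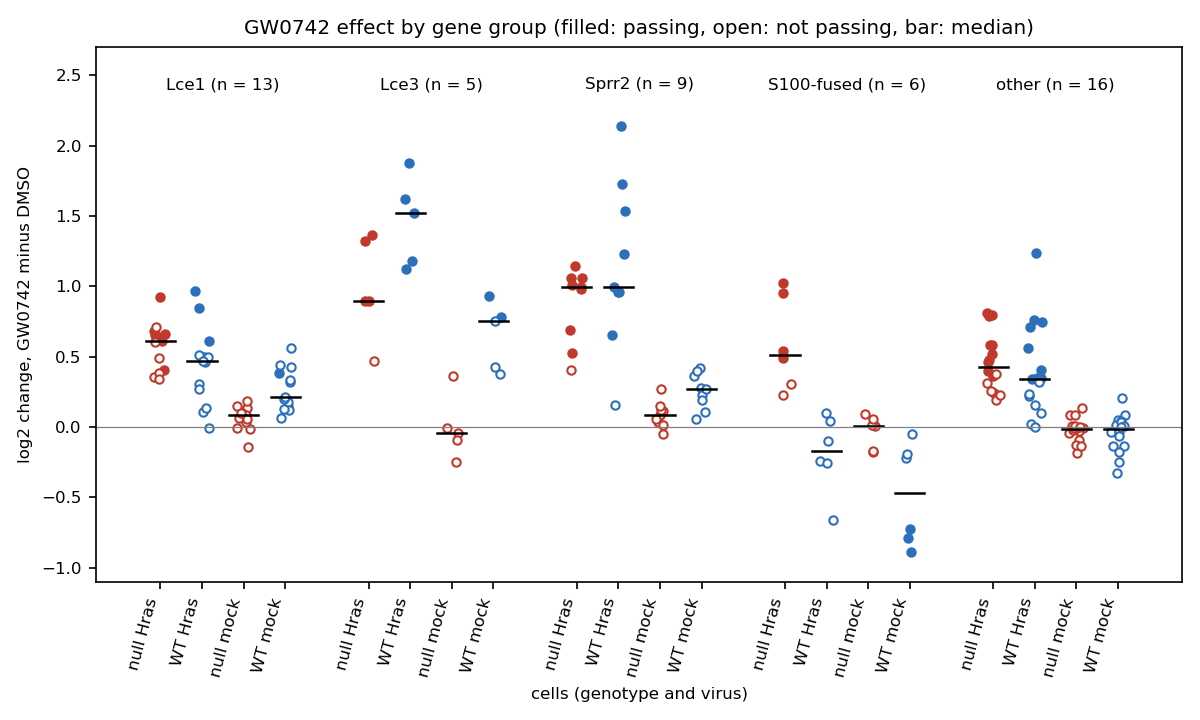
Log2 change with GW0742 by gene group in the 4 kinds of cells, 1 point per member, filled where it passed, with bars for medians; red is null and blue is WT. Sprr1, Sprr3, Sprr4 and Lce6a are not drawn. Points of Lce3 and Sprr2 stand highest in Hras cells of both genotypes, null mock points lie between -0.25 and 0.36, and S100-fused points lie above 0 in null Hras cells and mostly below 0 in WT cells.

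In mock cells few members passed with the ligand. In null mock cells 0 of 54 passed by limma (0% higher and 0% lower of all genes), 0 members had an unadjusted p under 0.05 and 1097 of all genes did. The lowest adjusted p of a member was 0.903. In WT mock cells 3 rose and 3 fell (1.25% and 1.61% of all genes), with a median of 0.10 against 0.00. There 16 members had an unadjusted p under 0.05 by limma and 2613 of all genes did. These counts also rest on the shared estimate of the spread. With only the 6 arrays compared, 14 members passed by limma in WT mock cells (687 of all genes) and 0 in null mock cells. The smaller number of calls in the model of all arrays does not show that the other members did not change.

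Flg2 read 7.67, 7.83 and 7.66 with GW0742 and 8.54, 8.33 and 8.66 with DMSO in WT mock cells, a fall of 0.79 ± 0.12 (adjusted p = 0.000535). Crnn read 8.89, 8.98 and 9.10 with GW0742 and 9.75, 9.71 and 9.68 with DMSO, a fall of 0.72 ± 0.12 (adjusted p = 0.00122). Both fell without overlap of the arrays, and both calls held without each array in turn.

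The other 4 were less firm. Rptn fell by 0.89 ± 0.21 (adjusted p = 0.0198), with 8.77, 8.89 and 8.71 with GW0742 against 9.72, 9.66 and 9.66 with DMSO. Lce3a rose by 0.93 ± 0.20 (adjusted p = 0.00967), Lce3f by 0.78 ± 0.20 (adjusted p = 0.038) and Lce1h by 0.39 ± 0.10 (adjusted p = 0.0452). The arrays of all 4 did not overlap. The call of Lce3a was lost without WT mock DMSO replicate 2 or WT mock GW0742 replicate 3 (adjusted p between 0.0556 and 0.0685), and that of Rptn without WT mock DMSO replicate 1, WT mock DMSO replicate 2, WT mock DMSO replicate 3, WT mock GW0742 replicate 1 or WT mock GW0742 replicate 3 (adjusted p between 0.0618 and 0.0841). Those of Lce3f and Lce1h were lost without any 1 of the 6 arrays (adjusted p between 0.0546 and 0.208 and adjusted p between 0.0707 and 0.203). The number of members passing was 3 without DMSO replicate 1, DMSO replicate 3 or GW0742 replicate 1 and 2 without DMSO replicate 2 or GW0742 replicate 3.

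Between null and WT mock cells the GW0742 effect differed for 0 members by limma (0.286% of all genes positive and 0.562% negative), with 9 at an unadjusted p under 0.05 and a lowest adjusted p of 0.0501. Within WT cells, the signed GW0742 effect after Hras minus that after mock transduction was positive for 10 members and negative for 0 (2.05% and 0.421% of all genes), with a median difference of 0.38 against -0.01. Those 10 were Sprr2e, Sprr2f, Sprr2g, Sprr2j-ps, Sprr3, Ivl, Cnfn, Tgm1, Tgm3 and Crnn. For Crnn the positive difference joins a fall in WT mock cells and a value that did not pass in WT Hras cells. The differences were 1.74 ± 0.24 (adjusted p = 0.000202) for Sprr2j-ps, 1.27 ± 0.22 (adjusted p = 0.00162) for Sprr2f and 1.23 ± 0.15 (adjusted p = 6.11e-05) for Tgm1, and each passed without any 1 of the 12 arrays. The call of Sprr2g (1.30 ± 0.32 (adjusted p = 0.0278)), whose difference was the second in size, was lost without WT Hras DMSO replicate 1, WT Hras GW0742 replicate 3, WT mock DMSO replicate 1, WT mock DMSO replicate 2, WT mock DMSO replicate 3, WT mock GW0742 replicate 1, WT mock GW0742 replicate 2 or WT mock GW0742 replicate 3 (adjusted p between 0.05 and 0.0853), and that of Sprr2e (1.00 ± 0.22 (adjusted p = 0.0158)) without WT Hras DMSO replicate 1, WT Hras GW0742 replicate 3 or WT mock GW0742 replicate 2 (adjusted p between 0.0529 and 0.0574). The count of 10 was 16 without WT Hras DMSO replicate 3.

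Of 19 other genes of the epidermal differentiation complex region, 7 rose and 1 fell with Hras in null cells (20.2% and 20.5% of all genes). In WT cells 6 rose and 4 fell (18.4% and 19% of all genes). The largest rises were those of S100a7a, by 3.01 ± 0.09 in null and 2.57 ± 0.09 in WT cells, and of the alarmins S100a9, 2.16 ± 0.10 and 1.82 ± 0.10, and S100a8, 1.91 ± 0.15 and 2.11 ± 0.15. Pglyrp4, a peptidoglycan recognition protein gene within the region, rose by 0.81 ± 0.14 in null and fell by 0.98 ± 0.14 in WT cells. With GW0742, 3 of the 19 rose and 0 fell in null Hras cells (3.51% and 1.51% of all genes). In WT Hras cells 3 rose and 3 fell (4.46% and 1.65% of all genes). Pglyrp4 rose by 0.85 ± 0.14 in null and 0.89 ± 0.14 in WT Hras cells, as did Kprp, a keratinocyte proline-rich protein, by 0.64 ± 0.18 and 0.88 ± 0.18. S100a8, S100a7a and S100a6 fell in WT Hras cells, by 0.59 ± 0.15, 0.31 ± 0.09 and 0.22 ± 0.06, and these 3 were named after their values were seen.

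Of 16 measured regulators of late differentiation, 4 rose and 8 fell with Hras in null cells (20.2% and 20.5% of all genes). In WT cells 0 rose and 14 fell (18.4% and 19% of all genes). The lowest change of the list with Hras was -1.56 for Ovol1 in WT cells and -1.14 for Grhl1 in null cells. Grhl1 averaged 9.19 with Hras and 10.59 after mock transduction in WT DMSO cells. Prdm1, a transcriptional repressor needed for terminal differentiation, rose by 1.33 ± 0.17 in null cells. It averaged 9.88 with Hras and 10.31 after mock transduction in WT DMSO cells. Its difference between genotypes was the largest of the list, 1.76 ± 0.24 (adjusted p = 1.92e-05). Hopx rose by 0.45 ± 0.11 in null and fell by 0.56 ± 0.11 in WT cells. With GW0742, 7 of the 16 rose and 0 fell in null Hras cells (3.51% and 1.51% of all genes). Likewise 7 rose and 0 fell in WT Hras cells (4.46% and 1.65% of all genes). Prdm1 rose by 0.71 ± 0.17 and 1.18 ± 0.17, and Grhl1, a grainyhead-like factor, by 0.76 ± 0.10 and 0.67 ± 0.10.

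Of 18 enzymes and inhibitors of envelope and filaggrin processing, 9 rose and 6 fell with Hras in null cells (20.2% and 20.5% of all genes). In WT cells 8 rose and 9 fell (18.4% and 19% of all genes). Padi3, a peptidylarginine deiminase, rose by 2.31 ± 0.15 and 1.74 ± 0.15. Klk5, a kallikrein protease of the cornified layer, fell by 1.09 ± 0.18 and 2.29 ± 0.18.

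Krt1 and Krt10, keratins of the early spinous layer that precede the envelope in differentiation, fell further with Hras than any member. Krt1 fell by 5.13 ± 0.13 in null and 5.80 ± 0.13 in WT cells, and Krt10 fell by 4.85 ± 0.09 in null cells and fell by 4.85 ± 0.09 in WT cells. All 4 measured genes of that list fell with Hras in each genotype (20.5% of all genes fell in null and 19% in WT cells).

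Markers of other cell types, above all those of fibroblasts and melanocytes, moved with several of these results. Over all genes, 20.2% rose and 20.5% fell with Hras in null cells, and 18.4% rose and 19% fell in WT cells. The mean log2 level of 8 fibroblast markers lay between 7.88 and 8.09 in the null Hras DMSO arrays, 7.68 and 7.77 in the WT Hras DMSO arrays, 8.37 and 8.42 in the null mock DMSO arrays and 9.03 and 9.06 in the WT mock DMSO arrays. With Hras 1 of the 8 rose and 5 fell in null cells and all 8 fell in WT cells. The difference passed as positive for 7 (8.35% of all genes). In null against WT cells 7 of the 8 were lower and 0 higher after mock transduction (5.53% and 4.89% of all genes). After Hras 5 were higher and 0 lower in null cells (10.1% and 9.32% of all genes). Of 8 melanocyte markers all fell with Hras in both genotypes. Their difference passed as positive for 4 and negative for 0 (8.35% and 8.41% of all genes). In null against WT cells 5 were lower and 0 higher after mock transduction (5.53% and 4.89% of all genes). After Hras 0 were higher and 0 lower in null cells (10.1% and 9.32% of all genes). With GW0742 6 rose in null Hras cells and 0 in WT Hras cells (3.51% and 4.46% of all genes). The mean of the 8 was between 9.37 and 9.59 with GW0742 and 9.08 and 9.18 with DMSO in null Hras cells. Of 8 markers of the inner root sheath and hair shaft, 2 fell with Hras in null and 3 in WT cells. Beside the 20.5% and 19% of all genes that fell, these are small counts from a short list. The mean of 9 leukocyte and Langerhans cell markers lay between 6.22 and 6.91 in the 8 groups. Of these 3 fell with Hras in each genotype (Tyrobp, Fcer1g and Lyz2), and 2 were higher in null than in WT mock cells (4.89% of all genes). Lyz2 averaged 5.95 in null Hras and 8.89 in null mock cells, and 6.01 in WT Hras and 7.88 in WT mock cells. The difference between the Hras effects passed as negative for Tyrobp and Lyz2 (8.41% of all genes). The mean of 5 endothelial markers lay between 6.69 and 6.94, and with Hras 2 of them rose and 1 fell in each genotype. The part of these cell types in the envelope results was not tested.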

How the data were processed

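The authors deposited 1 table of log2 values for 24 Affymetrix Mouse Gene 1.0 ST arrays of total RNA, and the submitters' processing notes name RMA, with no software or version. The deposited log2 values lay between 2.27 and 14.8. RMA as usually run includes quantile normalization, which hides a shift shared by most genes, so changes are relative to the rest.

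Of 34760 probe sets, 21640 carried 1 symbol in the platform annotation, and the one with the highest mean stood for each of 19937 genes. Groups came from the labels. A model of the 8 groups was fitted to all genes (R 4.3.3; limma 3.58.1), with 16 residual and 4.43 prior degrees of freedom and without a block for the replicate number, and gave 12 two-sided comparisons, adjusted by Benjamini-Hochberg over all genes. Members and lists were chosen with earlier results of these data known. Values were to be given for a fixed set of members and for the 5 largest rises and falls of each comparison, and for the checks Ppard, Pdk4 and Angptl4 and the 2 largest passing changes of each other list. Not all of these are given. For GW0742 in null Hras cells those left out include Lce3b, Sprr2g, Sprr2j-ps, Tgm3, Casp14, Asprv1, Evpl, Calm4 and Sprr2d. In WT Hras cells they include Lce3e, Sprr2g, Tgm3, Sbsn, Asprv1, Cnfn, Evpl and Sprr2d. The null Hras calls of Sprr2g, Tgm3, Casp14, Asprv1 and Evpl were lost when some single array was left out. Chosen after their values were seen were the test values of Lce1b, Lce1e, Lce1f, Lce1g, Lce1h, Lce1i, Lce3e, Lce6a, Sprr2b, Sprr2e, Sprr2f, Sprr2g, Sprr4, Tchh and Tchhl1 with Hras in 1 or more comparisons, of Lce1h between genotypes, of Crnn, Lce1b, Lce1h, Sprr2b and Grhl1 with GW0742, of Lyz2, of S100a6, S100a7a and S100a8 with GW0742, and of Hopx, Klk5, Pglyrp4, S100a8 and S100a9 with Hras where they were outside the rule. The promoters shown were also chosen so. Flg was not analysed here.

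The procedure was tested on simulated data. The alternatives were centring each array on its median, leaving out the 40% of genes with the lowest mean, trend and robust moderation, testing all probe sets with 1 symbol, array weights, only the arrays compared, a fit lacking the null Hras GW0742 arrays, the replicate number as a block, and leaving out each array in turn. Promoter windows came from RefSeq (GRCm38.p6) and were aligned in pairs with Biopython 1.88. Figures were drawn with matplotlib 3.10.9.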

Additional observations from a re-analysis of the deposited data

Results flagged for a closer look

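The differences between effects that passed, up to the 5 largest in each direction, are given with their log2 values. For the Hras effect in null minus that in WT cells they were 2.49 for Lce3e, 2.42 for Lce1b, 2.36 for Lce3f, 2.32 for Lce1f, 2.26 for Lce1d and -0.34 for Ppl. For the GW0742 effect in null Hras minus that in WT Hras cells they were 1.69 for Rptn, 0.85 for Crnn, 0.78 for Calm4, 0.73 for Flg2, 0.64 for Tchh and -1.08 for Sprr2j-ps. For the GW0742 effect in WT Hras minus that in WT mock cells they were 1.74 for Sprr2j-ps, 1.3 for Sprr2g, 1.27 for Sprr2f, 1.23 for Tgm1 and 1 for Sprr2e. In each case the difference itself was tested with limma. In the first of these comparisons the call of Ppl depended on single arrays, in the second those of Calm4, Flg2, Tchh and Sprr2j-ps did, and in the third those of Sprr2g and Sprr2e did. All 12 Hras arrays of Flg2 lay under the background guide of 6.83.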

How the results depend on the processing

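Over 147 values of named members, 1096 of 1139 values under 8 other settings kept their direction and stayed past the threshold, 43 no longer passed and 0 reversed. With 1 array left out 978 of 1092 did, 114 no longer passed and 0 reversed. The cause was not tested. The fit with only the arrays compared has fewer degrees of freedom and takes its estimate of the spread from those arrays alone.

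With only the arrays compared, the number of members passing was 23 for null against WT in Hras DMSO cells, 14 for GW0742 in WT mock cells, 0 for GW0742 in null Hras cells, and for the GW0742 difference between null and WT 4 in mock and 1 in Hras cells. With array weights it was 11 for GW0742 in WT mock cells, 20 for the difference between Hras and mock WT cells and 3 for that between null and WT mock cells. For the last of these, where 0 passed, 1 passed with each array centred, 2 without the dimmest 40% of genes, 1 with trend and robust moderation and 1 without the null Hras GW0742 group.

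With 1 array left out, the numbers lay between 41 and 43 for Hras in WT, 40 and 48 for Hras in null cells and 37 and 43 for their difference. They lay between 23 and 32 for null against WT in mock and 28 and 40 in Hras cells. For GW0742 they lay between 2 and 4 in WT mock, 0 and 0 in null mock, 24 and 35 in WT Hras and 16 and 40 in null Hras cells. The GW0742 differences gave 0 to 1 between null and WT mock, 2 to 8 between null and WT Hras, and 8 to 16 between WT Hras and WT mock cells.

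The labels do not say what a replicate number marks. Of 84 same-number pairs of arrays, 12 had a correlation of deviations over 0.1 (range -0.29 to 0.25). Each array's deviations were also correlated with those of the arrays in other groups and averaged by replicate number. For 12 of 24 arrays the array's own number, 1 of 3, had the highest average. In 1 of 28 pairs of groups, null mock DMSO and WT mock DMSO, all 3 correlations were over 0.1 (0.144, 0.118 and 0.132), and there 31 members passed with and without the replicate block and no named call was lost. With the block 2 members passed for the GW0742 difference between null and WT mock cells in place of 0, and the other counts stayed within 1.5 times. Testing every probe set with 1 symbol gave 35 in place of 36 for GW0742 in null Hras cells and 5 in place of 6 for the GW0742 difference between null and WT Hras cells. No member had a second such probe set, so reading a member at another one gave no value. With 3 arrays in a group, and members near the top or bottom of the scale, small changes may be missed.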

Other observations

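Probe sets annotated with several members were left out of the comparisons. The one shared by the Lce3 genes (Lce3a to Lce3f) averaged 13.75 in null Hras GW0742, 13.12 in null Hras DMSO, 13.60 in WT Hras GW0742 and 12.26 in WT Hras DMSO cells. After mock transduction it averaged 11.23 in null GW0742, 11.18 in null DMSO, 12.83 in WT GW0742 and 12.34 in WT DMSO cells. The one shared by Sprr2a1, Sprr2a2, Sprr2a3 and Sprr2b averaged 14.04 in null Hras DMSO and 14.13 in WT Hras DMSO cells, and 14.31 in null mock DMSO and 14.32 in WT mock DMSO cells. The one shared by Sprr2a1 and Sprr2a3 averaged 13.18 in null Hras DMSO and 13.29 in WT Hras DMSO cells, and 13.66 in null mock DMSO and 13.63 in WT mock DMSO cells.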
